A study of Mus musculus with 2 samples.

Results

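A small set of droplets in CD45-sorted mouse mesothelioma carried transcripts of fibrillar collagen and of the leukocyte gene Ptprc together, and these co-detecting cells are described here. A cell was taken when it had at least 300 genes, at least 5000 unique molecular identifiers (UMIs, 1 per captured RNA molecule) and at most 10% mitochondrial UMIs, and when Col1a1, Col1a2 and Col3a1 summed to at least 10 UMIs with at least 1 UMI of Ptprc. The members were thus chosen by their collagen and Ptprc counts and their depth. The rule found 262 cells among 14121 that passed the filter. Of these, 108 came from 7385 cells of the control library and 154 from 6736 cells of the anti-VEGF library. No member barcode was among the 35 barcodes that the libraries shared. A further 3 control and 4 anti-VEGF barcodes met both minima but failed the filter, each through its mitochondrial share.

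The tumours were grown from AB1-HA, a mouse malignant mesothelioma line that carries an influenza haemagglutinin antigen. Mice received either a control antibody or an antibody against vascular endothelial growth factor (VEGF), and each treatment gave 1 droplet library of 10x 3' v3.1 chemistry. Tumours were minced and digested with collagenase A and DNase, dead cells were removed by propidium iodide, and cells labelled with an anti-CD45 antibody were sorted. The number of mice behind each library, the doses and the days of treatment are not given in the sources used here. With 1 library per antibody there is no test of any difference. All intervals are 95% intervals that cover counting error only.

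Fibrocytes are cells of blood origin that make collagen while they keep CD45, the surface phosphatase that Ptprc encodes, and they are commonly recognised by CD45 or CD34 together with type I collagen. They enter wounds, fibrotic lung and tumours along chemokine gradients, with CXCR4 and CCR2 among their receptors, and they have been described as a source of growth factors in tumours under anti-VEGF treatment. In droplet sequencing the same pair of transcripts also appears when RNA of a collagen-making cell and RNA of a leukocyte share a barcode. The co-detecting cells were therefore set beside 2 other groups of cells of the same libraries. Collagen cells without Ptprc met the collagen minimum with no Ptprc UMI, and there were 348 and 539 of them in the control and anti-VEGF libraries, although all cells were sorted on CD45. Macrophage-marker cells had fewer than 10 collagen UMIs, at least 1 Ptprc UMI and UMIs of at least 5 of 9 macrophage genes (among them C1qa, C1qb, C1qc, Adgre1, Csf1r, Cd68, Fcgr1 and Mertk), and there were 5450 and 4649 of them.

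Co-detecting cells made up 1.46% of control cells (interval 1.2 to 1.76) and 2.29% of anti-VEGF cells (interval 1.94 to 2.67). All collagen cells together made up 6.18% and 10.3%. Among collagen cells, the share with a Ptprc UMI was 23.7% (interval 19.9 to 27.9, of 456 cells) in the control library and 22.2% (interval 19.2 to 25.5, of 693 cells) in the anti-VEGF library. The higher share of co-detecting cells in the anti-VEGF library thus went with a higher share of collagen cells as a whole, and the part of collagen cells with Ptprc overlapped between libraries. Since CD45 was the sort marker and 1 library was made per antibody, the sort, the tumour and the antibody cannot be told apart in these shares.

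The values that chose the members are given as a description. Collagen UMIs ranged from 10 to 1171 with a median of 71 in the control members, and from 11 to 2210 with a median of 67 in the anti-VEGF members. Ptprc UMIs ranged from 1 to 23 with a median of 3.5, and from 1 to 19 with a median of 4. A single Ptprc UMI carried 32 of 108 control and 38 of 154 anti-VEGF members, and 3 or more UMIs were present in 65 and 108. Just inside the collagen threshold, with 10 to 12 UMIs, lay 6 control and 5 anti-VEGF members. Just outside it, with 7 to 9 collagen UMIs and a Ptprc UMI, lay 10 and 5 cells. Most Ptprc cells held no collagen UMI at all, 5415 in the control library and 4572 in the anti-VEGF library.

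Among collagen cells, Ptprc was detected more often where more macrophage genes were detected, and both kinds of detection rise with depth. Of the collagen cells with a UMI of none of the 9 macrophage genes, 1 of 17 control cells and 0 of 31 anti-VEGF cells had a Ptprc UMI. With 1 to 4 of the genes, 6.81% of 279 control cells (interval 4.15 to 10.4) and 8.45% of 485 anti-VEGF cells (interval 6.14 to 11.3) had one. With 5 to 9 of the genes the share was 55.0% of 160 control cells (interval 47.0 to 62.9) and 63.8% of 177 anti-VEGF cells (interval 56.3 to 70.9). The collagen cells with more macrophage genes were also deeper: those without Ptprc had a median of 41595 and 40923 UMIs with 0 to 4 macrophage genes. The share was not computed at matched depth, and since Ptprc chose the members it is a description. Members with 5 to 9 macrophage genes numbered 88 of 108 in the control library and 113 of 154 in the anti-VEGF library, and they held a median of 88 and 204 UMIs of the 9 genes. The collagen cells with 5 to 9 macrophage genes but no Ptprc held a median of 9.5 and 9 such UMIs at medians of 58705 and 60145 UMIs per cell. Their pan-leukocyte genes summed to 444 and 749 CPM (UMIs of a gene in 1000000 UMIs of the summed cells). In the members with 5 to 9 macrophage genes they summed to 3654 and 4173. This list of 20 genes covers the blood lineages and includes myeloid genes such as Spi1 and Tyrobp.

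**Figure D1:**
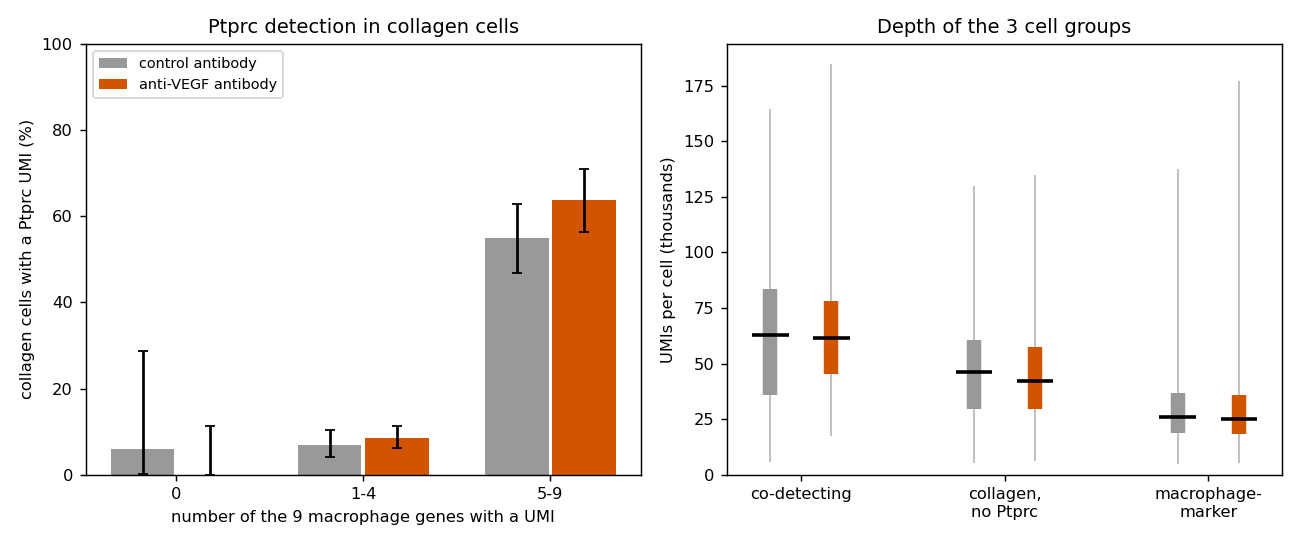
Left, the percentage of collagen cells with a Ptprc UMI by the number of the 9 macrophage genes with a UMI, with exact binomial 95% intervals, for the control (grey) and anti-VEGF (orange) libraries. Right, UMIs per cell for the 3 cell groups (black bar, median; coloured bar, quartiles; thin line, full range). The bars stand at 55.0% and 63.8% where 5 to 9 macrophage genes were present and under 10% elsewhere, and co-detecting cells have the highest medians.

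The co-detecting cells were also the deepest cells. Their median was 62812 UMIs in the control library and 61343 in the anti-VEGF library. Collagen cells without Ptprc had medians of 46166 and 42250, and macrophage-marker cells had medians of 25878 and 24977. The median of the members thus lay above either group alone and below the sum of the 2 medians, 72044 and 67227. Genes per cell followed, with medians of 6925 and 6981 in the members, 6116 and 5699 in collagen cells without Ptprc, and 4611 and 4425 in macrophage-marker cells. The Scrublet score, which rises as a cell resembles the sum of a pair of other cells of its library, had a median of 0.123 and 0.166 in the members. It was 0.054 and 0.040 in collagen cells without Ptprc, and 0.059 and 0.053 in macrophage-marker cells. Members with 5 to 9 macrophage genes had medians of 0.151 and 0.215, and members with 0 to 4 had 0.064 and 0.058, close to those of collagen cells without Ptprc. Scrublet's own threshold marked 1 cell in the control library and 0 in the anti-VEGF library, too few to serve as a doublet call, so only the scores are used here, and whether a droplet held more than 1 cell was not tested. Ptprc detection also depends on depth, and after thinning each cell to 5000 UMIs the share of members with a Ptprc UMI was 29.6% (interval 21.2 to 39.2) and 35.1% (interval 27.6 to 43.2). In thinned macrophage-marker cells it was 61.9% and 61.4%.

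**Figure D2:**
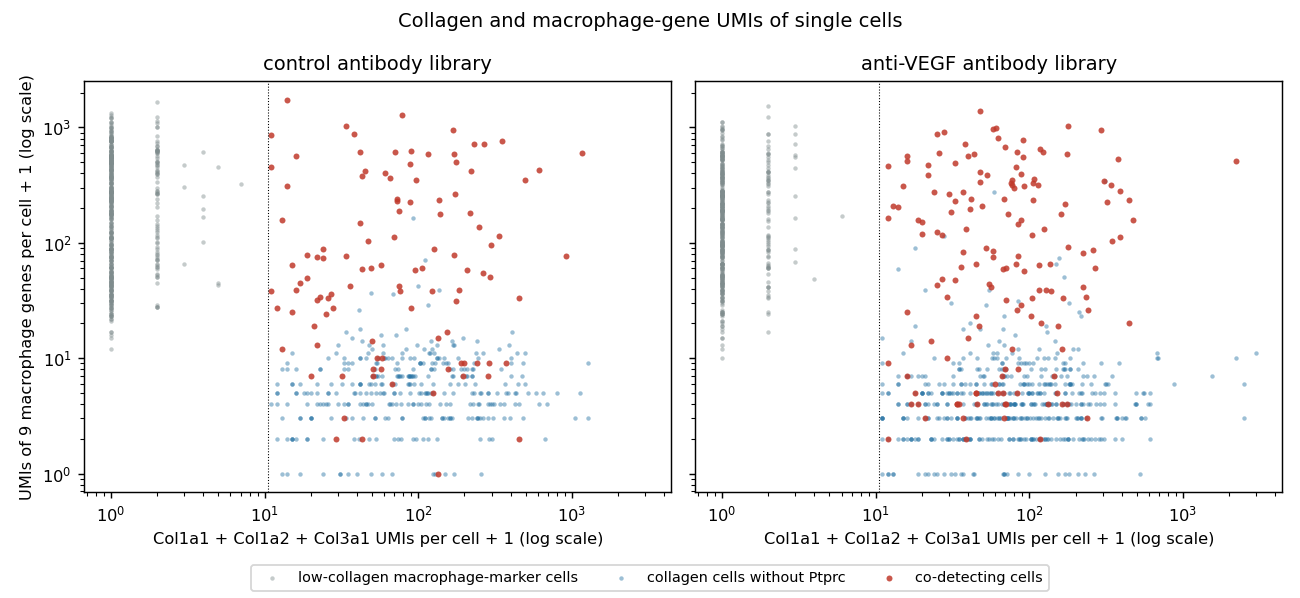
Each point is 1 cell, with summed Col1a1, Col1a2 and Col3a1 UMIs on the horizontal axis and summed UMIs of the 9 macrophage genes on the vertical axis, both plus 1 on log scales. The left panel is the control and the right panel the anti-VEGF library; red points are co-detecting cells, blue points collagen cells without Ptprc and grey points 1 in 10 of the macrophage-marker cells, and the dotted line is the collagen minimum. Red points fill the field above the blue band and reach the macrophage-gene UMIs of the grey points, while a minority lie within the blue band.

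Macrophage genes were present in the members at levels between those of the 2 other groups. The 9 genes summed to a median of 59.5 UMIs per member in the control (range 0 to 1738) and 87.5 in the anti-VEGF library (range 1 to 1383). In collagen cells without Ptprc the medians were 4 and 3 UMIs, and in macrophage-marker cells 221 and 170. C1qa, a chain of complement C1q made by tissue macrophages, stood at 1121 and 1106 CPM in the members. It stood at 39.0 and 38.1 in collagen cells without Ptprc and at 3590 and 3079 in macrophage-marker cells. Lyz2, the macrophage lysozyme, stood at 3710 and 4684 in the members, against 12050 and 13691 in macrophage-marker cells. At least 1 C1qa UMI was present in 90.7% and 87.7% of members, and also in 69.5% and 59.2% of collagen cells without Ptprc. After thinning to 5000 UMIs the shares were 53.7% and 61.7% against 19.0% and 10.4%, so the members lay above this background at equal depth.

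To put every gene on 1 scale, its level in the members was expressed as a position between collagen cells without Ptprc, set to 0, and macrophage-marker cells, set to 1. The position was computed for genes with at least 20 CPM and at least a 5-fold higher level in macrophage-marker cells. By construction, a mixture of the 2 groups in 1 proportion gives every gene the same position. Over 570 genes of the control library the median position was 0.365 (quartiles 0.323 and 0.423), and over 588 genes of the anti-VEGF library it was 0.390 (quartiles 0.358 and 0.429). In the opposite direction, genes at least 5-fold higher in collagen cells without Ptprc had a median position toward those cells of 0.616 over 489 genes and 0.591 over 468 genes. The 2 medians summed to 0.981 in each library. The macrophage-marker part of the summed median depths of the 2 groups was 0.359 in the control library and 0.372 in the anti-VEGF library. The minima on raw UMIs that chose the cells also bear on depth, and the positions pool members that differ widely. Nothing is therefore read from the nearness of these values to 0.365 and 0.390.

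Pan-leukocyte genes had positions near those of genes that mark macrophages, with medians slightly higher in both libraries. The pan-leukocyte list holds myeloid genes such as Spi1 and Tyrobp, so the nearness is in part built in. Of a list of 20 pan-leukocyte genes, 17 met the criteria, and their median position was 0.360 in the control (from 0.253 for Ikzf1, a lymphoid and myeloid transcription factor, to 0.477 for Rac2, a haematopoietic GTPase). In the anti-VEGF library the median was 0.384, from 0.341 for Ikzf1 to 0.479 for Rac2. For 14 of 15 macrophage genes the medians were 0.327 (quartiles 0.307 and 0.365) and 0.354 (quartiles 0.339 and 0.371). All 17 pan-leukocyte and all 14 macrophage genes lay within 1.5-fold of the median over all genes in both libraries, as did 511 of the 570 and 555 of the 588 genes in all. Ptprc itself, which the rule used, had positions of 0.387 and 0.385. When the members with 5 or more macrophage genes were left out, the pan-leukocyte position was 0.043 and 0.139, and with only those members it was 0.401 and 0.460. No value here separates leukocyte genes made by the collagen cell from those of a macrophage in the same droplet.

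**Figure D3:**
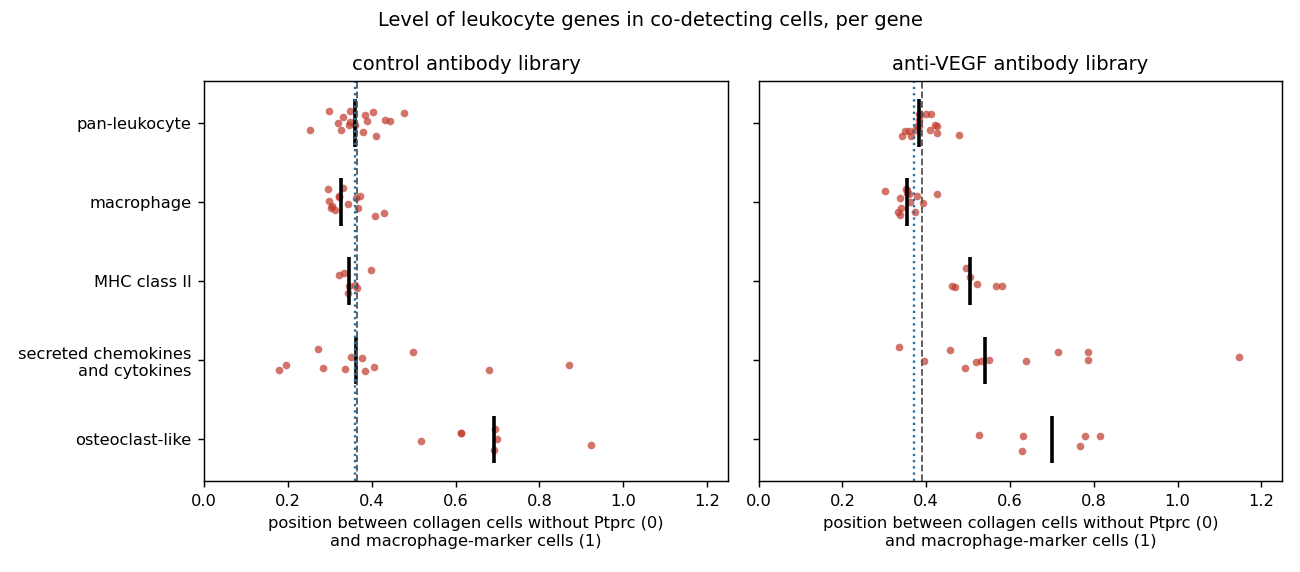
Position of each gene in the co-detecting cells between collagen cells without Ptprc (0) and macrophage-marker cells (1), by gene list, for the control (left) and anti-VEGF (right) libraries. Points are genes, black bars list medians, the dashed line the median over all genes that met the criteria and the dotted line the macrophage-marker part of the summed median depths. Pan-leukocyte and macrophage genes gather near the dashed line, and osteoclast-like genes lie to its right at medians of 0.692 and 0.700.

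Other groups of leukocyte genes spread further. Of the osteoclast-like genes 1 of 7 and 1 of 6 lay within 1.5-fold of the median over all genes. Osteoclast-like genes, which mark multinucleated bone-resorbing cells and related macrophages, had median positions of 0.692 over 7 genes and 0.700 over 6 genes. Acp5, the tartrate-resistant acid phosphatase, stood at 1153 and 903 CPM in the members against 1635 and 1148 in macrophage-marker cells. Ctsk, the collagen-degrading cathepsin K, stood at 1146 and 1082 against 1629 and 1301. Cells with at least 20 UMIs of Acp5 plus Ctsk made up 34.3% of control members (interval 25.4 to 44.0) and 22.1% of anti-VEGF members (interval 15.8 to 29.5). They made up 22.5% and 15.8% of macrophage-marker cells, and 1.15% and 1.67% of collagen cells without Ptprc. With Acp5-rich and Ctsk-rich macrophage-marker cells as the reference, an alternative added after the data were seen, the pan-leukocyte position became 0.450 and 0.453. MHC class II genes lay within 1.5-fold of the median over all genes, 7 of 7 in each library, with a median position of 0.345 in the control library and 0.506 in the anti-VEGF library, and secreted chemokines and cytokines had medians of 0.363 and 0.540. Neutrophil genes that met the criteria were S100a8 in both libraries and S100a9 in the anti-VEGF library. S100a8 stood at 1.56 in the control library, the highest position of all genes there. In the anti-VEGF library S100a8 stood at 0.746 and S100a9 at 0.925, and the highest position was that of the chemokine Cxcl9, at 1.146.

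No gene with enough UMIs placed the members 1.5-fold or more outside the range of the other 2 groups in both libraries. Of 6397 genes with at least 20 CPM in 1 of the 3 groups in both libraries, 0 were at least 1.5-fold above both groups and 0 were at least 1.5-fold below both. Within the control library alone 11 of 6746 genes were 1.5-fold above both, and 6 of the 11 had their highest count in the same single member. That member held all 139 UMIs of Ccl11, an eosinophil-attracting chemokine of fibroblasts, 131 of 135 UMIs of Postn, which encodes the matrix protein periostin, and 159 of 180 UMIs of Tnfaip6. Another member held 187 of 192 UMIs of the mast-cell tryptase Tpsab1, and one more held 255 of 261 UMIs of S100a9 and 193 of 210 of S100a8, calcium-binding proteins of neutrophils. In the anti-VEGF library 1 of 6545 genes lay above both groups, Cpxm1, with 292 of 293 UMIs in 1 member, and 1 lay below both, the interferon-response gene Usp18. These genes were named after their values were seen.

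Genes used to recognise fibrocytes divided between the 2 other groups. Cd34, a sialomucin of progenitor, endothelial and some stromal cells, stood at 240 and 277 CPM in the members. It was higher in collagen cells without Ptprc, at 430 and 452, and stood at 1.81 and 2.68 in macrophage-marker cells. At least 3 Cd34 UMIs were present in 79.6% and 90.3% of members, in 92.5% and 92.8% of collagen cells without Ptprc, and in 0.257% and 0.387% of macrophage-marker cells. Cd34 was thus found with collagen whether or not Ptprc was present. Cxcr4, the chemokine receptor for Cxcl12, showed the opposite order, with 36.04 and 34.1 in the members, 0.979 and 1.47 in collagen cells without Ptprc, and 104 and 97.65 in macrophage-marker cells. Itgam, the integrin chain CD11b, stood at 76.0 and 103 in the members against 208 and 246 in macrophage-marker cells. The monocyte chemokine receptor Ccr2 stood at 55.3 and 46.4 against 182 and 130, and the mannose receptor Mrc1 at 118 and 127 against 358 and 292. Of the 16 fibrocyte genes, 7 met the criteria for a leukocyte position, with medians of 0.325 and 0.382.

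Other fibrocyte genes lay closer together in the 3 groups. Lsp1, the leukocyte-specific protein 1 of fibrocyte protocols, stood at 77.9 and 72.2 CPM in the members, 63.9 and 48.5 in collagen cells without Ptprc, and 62.9 and 109 in macrophage-marker cells. S100a4, also called fibroblast-specific protein 1, stood at 2522 and 2138, against 2503 and 2231 and against 1944 and 1694. Vim, the intermediate filament vimentin, lay between 5412 and 6965 in all 3 groups of both libraries. Sema7a, the semaphorin 7A of circulating fibrocytes, was near the floor of detection, at 4.785 and 2.34. No fibrocyte gene with at least 20 CPM was higher in the members than in both other groups by 1.5-fold in both libraries. No marker here sets the members apart as a fibrocyte state, whether they hold one was not tested, and the cells are called by their rule throughout.

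**Figure D4:**
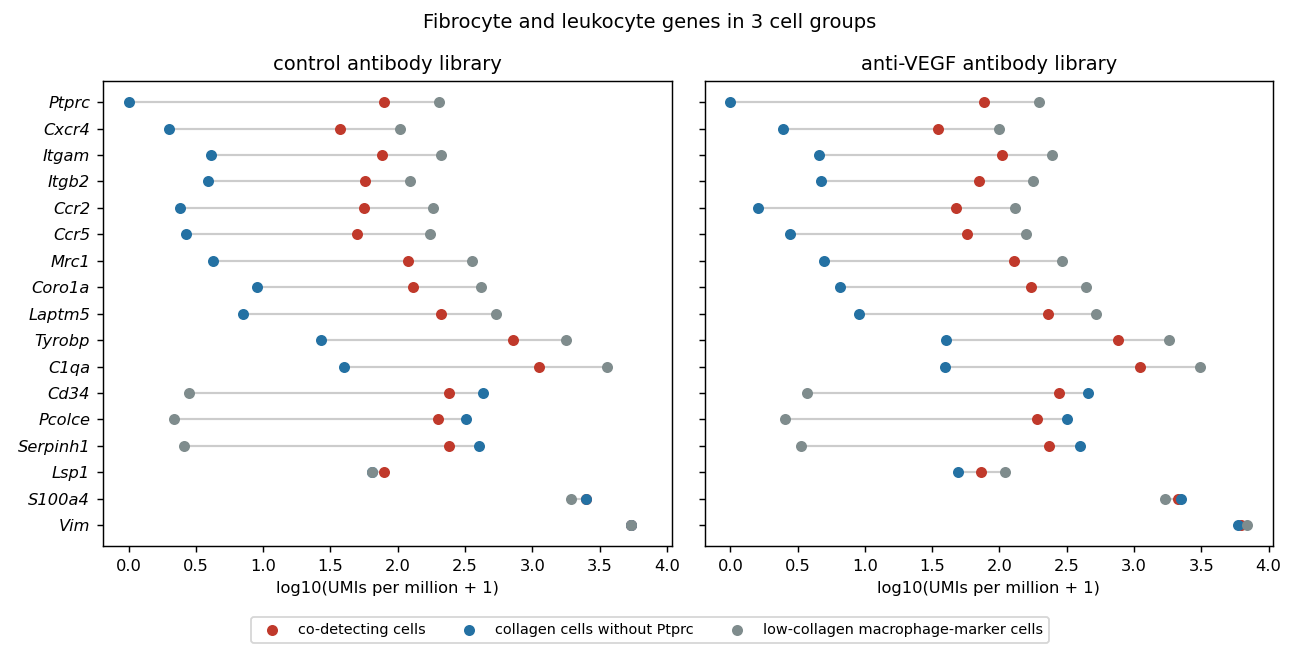
Levels of 17 genes as log10 of CPM plus 1 in the co-detecting cells (red), collagen cells without Ptprc (blue) and macrophage-marker cells (grey) of the control (left) and anti-VEGF (right) libraries, each point a sum over the cells of a group. For the leukocyte genes from Ptprc to C1qa the red point lies nearer the grey one, for Cd34, Pcolce and Serpinh1 nearer the blue one, and for Lsp1, S100a4 and Vim the points lie close together.

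Genes of the collagen side varied in how near the members stood to collagen cells without Ptprc. The 12 fibroblast-list genes that met the criteria had median positions toward those cells of 0.78 and 0.498. They ranged from 0.694 (Col6a1) to 1.08 (Lum) in the control and from 0.0961 (Lum) to 0.631 (Col6a1) in the anti-VEGF library. Lum rested on few cells, since 5 members held 87.2% of its 296 control UMIs and 97.8% of its 46 anti-VEGF UMIs. Against collagen cells without Ptprc, 0 of 16 tested fibroblast-list genes had a log2 ratio of -1 or lower in the control library and 7 of 18 in the anti-VEGF library. Over all genes, 0.774% and 1.12% had such a ratio. Serpinh1, the collagen chaperone Hsp47, stood at 240 and 233 CPM in the members, 399 and 398 in collagen cells without Ptprc, and 1.59 and 2.33 in macrophage-marker cells. Pcolce, an enhancer of procollagen processing, stood at 197 and 190 against 322 and 317. Msln, the mesothelioma antigen mesothelin, had at least 3 UMIs in 44.4% and 46.8% of members and in 54.9% and 57.1% of collagen cells without Ptprc. It had as many in 0.0551% and 0.129% of macrophage-marker cells. Acta2, the smooth muscle actin of myofibroblasts, gave only 0.449 and 0.974 CPM, whereas Tpm2, a tropomyosin of the same list, stood at 121 and 125 against 194.5 and 203 in collagen cells without Ptprc. One collagen gene went the other way, since Col14a1 stood at 33.3 and 37.5 in the members, 2.27 and 6.31 in collagen cells without Ptprc, and 100 and 113 in macrophage-marker cells. Its positions were 0.318 and 0.292.

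The genes with the largest ratios followed the same division. Against collagen cells without Ptprc, 826 of 11307 genes (7.31%) had a log2 ratio of at least 1 in size in the same direction in both libraries, 820 of them higher (7.25%) and 6 lower (0.0531%). Within the control library 9.35% had such a ratio, 8.58% higher and 0.774% lower, and within the anti-VEGF library 10%, 8.93% higher and 1.12% lower. The rule used this contrast, so nothing is read from the counts. The highest were Ccl3, a macrophage chemokine, the class II genes H2-Aa and Cd74, Cd52, the protease Ctsc, Ms4a6c, Ms4a7 and C1qc. The lowest were Pthlh, Inhba, Ghr, Bdnf, Emp2, Msln, Cyp51 and Hoxd11, of which Pthlh, the parathyroid hormone-related protein, stood at 36.8 and 31.9 CPM against 85.3 and 60.5. Against macrophage-marker cells, 1810 of 13269 genes (13.6%) had such a ratio in both libraries, 1204 higher (9.07%) and 606 lower (4.57%), with 17.3% in the control library alone (10.7% higher, 6.66% lower) and 16.7% in the anti-VEGF library alone (10.7% higher, 6.02% lower). The highest were Efemp1, Cd34, Pcolce, Serpinh1, Mgp, Cyr61, Sparc and Col6a1. The lowest were Ch25h, Fcgr1, Col14a1, Lyz2, Ctss, Clec4d, Alcam and C1qb.

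Members differed widely among themselves in leukocyte RNA. Per 10000 UMIs, the pan-leukocyte genes without Lsp1 had a median of 31.2 in control and 32.1 in anti-VEGF members. Collagen cells without Ptprc had medians of 2.77 and 2.38, and macrophage-marker cells 83.6 and 83.8. A bound was set at the 97.5 percentile of collagen cells without Ptprc, 10.3 and 12.02 UMIs per 10000. At or below it lay 21 of 108 control members and 33 of 154 anti-VEGF members. Of the members with a single Ptprc UMI, 19 of 32 and 31 of 38 lay there. Of those with 2 Ptprc UMIs, 1 of 11 and 0 of 8 did, and of those with 3 or more, 1 of 65 and 2 of 108. Members with more than 1 Ptprc UMI and pan-leukocyte RNA in the range of collagen cells were thus 2 in each library.

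Across members, pan-leukocyte UMIs followed the 9 macrophage genes, with a Spearman correlation of 0.761 over 108 control members and 0.799 over 154 anti-VEGF members. Collagen UMIs did not, with correlations of -0.074 and -0.201. These correlations are descriptions over cells of 1 library each, and the cells share their library and differ in depth. Ptprc, which the rule used, stood at 113 and 89.0 CPM in members with 10 to 29 collagen UMIs and at 99.3 and 55.6 in members with 300 or more.

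The members with 0 to 4 macrophage genes, 20 in the control library and 41 in the anti-VEGF library, had few of the genes that mark most macrophages here, though not none, since 1 anti-VEGF member with 4 genes or fewer held 103 UMIs of them. C1qa stood at 27.3 and 24.3 CPM in them, against 30.6 and 22.3 in collagen cells without Ptprc that also had 0 to 4 macrophage genes. C1qa is among the 9 genes that set this range, so its low level in both groups is in part built in. The pan-leukocyte genes of these members summed to 720 and 1449 CPM, against 370 and 301 in those collagen cells. These sums include myeloid genes outside the 9. Spi1, the myeloid transcription factor PU.1, stood at 29.5 and 82.2 against 5.91 and 2.77. Tyrobp, a myeloid signalling adaptor, stood at 116 and 346.5 against 20.6 and 14.9. In the anti-VEGF library Acp5 and Ctsk stood at 1451 and 1762, above the 1148 and 1301 of macrophage-marker cells. These levels were unevenly spread, since Acp5 plus Ctsk had a median of 2 UMIs per member, an upper quartile of 8 and a maximum of 1515. In the control library the median was 2 and the maximum 205. Other leukocyte genes were found in part of these members. In the control library 3 of the 20 had at least 20 UMIs of Acp5 plus Ctsk, and 1 held at least 10 UMIs of mast-cell genes. In the anti-VEGF library 8 of the 41 had at least 20 UMIs of Acp5 plus Ctsk, 5 had at least 50 UMIs of MHC class II genes, 2 had at least 10 UMIs of S100a8 plus S100a9, and 1 had at least 10 UMIs of T and NK cell genes and 16 of Ptprc. The remaining 16 control and 28 anti-VEGF members met none of these minima, which were chosen after the data were seen. Of those, 15 and 27 had a single Ptprc UMI, and the remaining member had 2 Ptprc UMIs in the control library and 6 in the anti-VEGF library. The median pan-leukocyte level of the 16 and 28 members was 3.19 and 1.89 UMIs per 10000, next to the 2.77 and 2.38 of collagen cells without Ptprc. The nearness is in part built in, since members with other leukocyte genes had been set aside. The collagen cells were not restricted in the same way.

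Markers of other cell types the sort could hold were present in few members. The 16 T and NK cell genes summed to 5.38 and 27.5 CPM in the members, 2.82 and 3.54 in collagen cells without Ptprc, and 65.5 and 34.7 in macrophage-marker cells. In the control members Cd3e, Cd3g, Cd8a and Gzma had 0 UMIs, and in the anti-VEGF members the first 3 had 20, 37 and 12 UMIs and Gzma 0. At least 10 UMIs of T and NK cell genes were present in 0 of 108 control and 4 of 154 anti-VEGF members (2.60%, interval 0.712 to 6.52), against 1.46% of anti-VEGF macrophage-marker cells. At least 10 UMIs of neutrophil genes were present in 1 and 7 members (0.926% and 4.55%), against 0.881% and 2.71% of macrophage-marker cells. These minima were not matched for depth, and the members were deeper than macrophage-marker cells. Neutrophil genes summed to 78.5 and 163 against 1.47 and 6.35 in collagen cells without Ptprc, mast or basophil genes to 38.0 and 1.07, and dendritic genes to 28.0 and 14.8. Within the control library the mast-cell genes rested on 1 member, which held all 28 UMIs of Cpa3 and 111 of 112 UMIs of Tpsb2.

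Members of the anti-VEGF library were next set against members of the control library. Of 11163 genes with at least 30 UMIs over both sums, 207 (1.85%) had a log2 ratio of at least 1 in size, 123 of them higher (1.1%) and 84 lower (0.752%) in the anti-VEGF library. The median log2 ratio over all genes was -0.07. In collagen cells without Ptprc 1.29% of genes had such a ratio (1.12% higher, 0.172% lower), and in macrophage-marker cells 0.886% (0.703% higher, 0.183% lower). Collagen and leukocyte genes were both detected in these members. Values of collagen cells without Ptprc and of macrophage-marker cells are therefore given beside many of the genes. Each ratio compares 1 library with 1 library.

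Genes induced by low oxygen were higher in the anti-VEGF members. Of 20 hypoxia genes 19 had a log2 ratio above 0 and 10 reached 1, with a median of 0.95, beside 0.84 in collagen cells without Ptprc and 0.82 in macrophage-marker cells. Car9, a carbonic anhydrase, stood at 17.9 CPM in control and 105 in anti-VEGF members, a ratio of 5.84 (interval 4.83 to 7.11). At least 3 Car9 UMIs were present in 14 of 108 control members and in 80 of 154 anti-VEGF members, so the difference was spread over many cells. In collagen cells without Ptprc, Car9 stood at 37.0 and 137, and in macrophage-marker cells at 7.15 and 7.70. Bnip3, a mitophagy receptor, stood at 160 and 444, a ratio of 2.77 (interval 2.59 to 2.96). Ankrd37, a direct target of hypoxia-inducible factor, stood at 44.6 and 155, a ratio of 3.48 (interval 3.08 to 3.96). Vegfa, the growth factor that the antibody binds, stood at 116 and 123, a ratio of 1.06 (interval 0.967 to 1.16), and Plin2 at 169 and 166.

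All 14 glycolysis genes had a log2 ratio above 0, with a median of 0.77, beside 0.53 in collagen cells without Ptprc and 0.70 in macrophage-marker cells. Pgk1, phosphoglycerate kinase, stood at 741 and 1779 CPM, a ratio of 2.40 (interval 2.33 to 2.48). Slc16a3, the lactate exporter MCT4, stood at 22.6 and 67.8, a ratio of 3.002 (interval 2.51 to 3.60). Slc16a3 belonged to the macrophage side, with 1.65 and 3.18 in collagen cells without Ptprc and 76.3 and 168 in macrophage-marker cells, whereas Car9 belonged to the collagen side. The metal-binding gene Mt1 stood at 699 and 2259, a ratio of 3.23 (interval 3.13 to 3.34), with a log2 ratio of 2.003 in collagen cells without Ptprc and 0.26 in macrophage-marker cells.

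The 20 pan-leukocyte genes had a median log2 ratio of 0.08, with 15 above 0 and 0 past 1 in either direction, and the 15 macrophage genes a median of -0.02. Without members with 5 or more macrophage genes these medians were 1.40 and 0.70, and without the top Scrublet scores -0.41 and -1.07. MHC class II genes, which present antigen to CD4 T cells, were all above 0, 8 of 8, with a median of 0.49 and 0 past 1. Their medians were 0.14 in collagen cells without Ptprc and -0.02 in macrophage-marker cells. In the members the class II median was 3.38 without those with 5 or more macrophage genes and 0.16 without the top Scrublet scores. Leaving out members with 5 or more macrophage genes kept only 20 control and 41 anti-VEGF members. Of these, 0 and 5 held at least 50 UMIs of class II genes. Cd74, the class II invariant chain, stood at 759 and 1071 CPM in the members, a ratio of 1.41 (interval 1.365 to 1.46), and at 2225 and 2095 in macrophage-marker cells. Members with at least 50 UMIs of class II genes were 23 of 108 (21.3%, interval 14.0 to 30.2) and 53 of 154 (34.4%, interval 27.0 to 42.5), and these intervals overlapped. In the control library the 5 members with the most Cd74 held 47.2% of its UMIs, and in the anti-VEGF library 23.2%.

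Of 20 secreted chemokines and cytokines 15 were above 0 and 7 reached 1, with a median of 0.61, beside 0.20 and 0.35 in the other groups. Il1b, the inflammatory cytokine interleukin 1 beta, stood at 72.7 and 226 CPM, a ratio of 3.11 (interval 2.82 to 3.44), while macrophage-marker cells stood at 391 and 424. The 5 members with the most Il1b held 58.0% and 39.5% of its UMIs. Ccl6, a myeloid chemokine, stood at 50.4 and 197, a ratio of 3.90 (interval 3.48 to 4.39). The 5 members with the most Ccl6 held 55.8% and 51.5% of its UMIs. Mmp12, the macrophage elastase, stood at 5.83 and 73.5, a ratio of 12.6 (interval 9.14 to 17.9), and at 39.6 and 197 in macrophage-marker cells. The control value rested on 39 UMIs, all in 5 members or fewer, and in the anti-VEGF library 5 members held 59.2%. Clec4e, a myeloid receptor for damaged cells, stood at 14.2 and 52.3, a ratio of 3.68 (interval 2.96 to 4.63). Cxcl9, an interferon-induced T-cell attractant, stood at 37.7 and 128, but a single member held 61.9% of its UMIs in the control library and 70% in the anti-VEGF library. Without the 3 members of each library that had the most fibroblast-list UMIs, the chemokine median was 0.16. Without the cells of the top Scrublet scores it was -0.51.

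Most fibroblast and other collagen genes had ratios below 0 in the anti-VEGF members without reaching a log2 ratio of -1, and few cells held much of this RNA. Over all genes 6835 of 11163 were below 0. Of 15 collagen genes outside the rule 14 had a log2 ratio below 0 and 3 were at or below -1, with a median of -0.46, beside 0.17 in collagen cells without Ptprc. Of 17 fibroblast-list genes 14 were below 0, 2 were at or below -1 and 1 was at or above 1, with a median of -0.51, beside 0.17. Col5a2, a chain of type V collagen, stood at 136 and 73.8 CPM, a ratio of 0.545 (interval 0.494 to 0.601). The 3 control members with the most fibroblast-list UMIs held 23.0% of the list's UMIs in that library, and the first of them alone 12.7%. In the anti-VEGF library the 3 held 13.7%. Without these 6 cells the median was -0.25 for the fibroblast list and -0.21 for the collagen genes. The first control member had 1730 fibroblast-list UMIs, with 131 of Postn, 61 of Lox and 151 of Dcn, and 0 of Msln, against a median of 77 fibroblast-list UMIs per control member. The first anti-VEGF member had 1723, with 49 of Postn, 235 of Dcn and 0 of Msln, and it was the member with 917 of the 1310 Cxcl9 UMIs of that library.

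Other genes that were lower in the anti-VEGF members also had uneven sources. Mgp, the matrix Gla protein that inhibits calcification, stood at 620 and 207 CPM, a ratio of 0.334 (interval 0.317 to 0.352), with a log2 ratio of -0.78 in collagen cells without Ptprc. Its 5 richest members held 51.5% and 45.9% of the UMIs. Fabp4, a fatty acid-binding protein, stood at 62.5 and 16.8, and 1 control member held 65.3% of its UMIs. Krt8, keratin 8, stood at 76.7 and 33.7, and 5 members held 84.2% and 72.8% of it. Hbegf, an EGF receptor ligand, stood at 166 and 82.7, a ratio of 0.498 (interval 0.455 to 0.545), with its 5 richest members at 29.4% and 22.5%. The lower group was completed by Il1rl1, Lyz1, Hspa1a and Cxcl10.

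Of 14 TGF-beta pathway genes 0 reached a log2 ratio of 1 in size, with a median of -0.05, where 1.85% of all genes did, so that lists this short say little. Tgfb1 stood at 58.3 and 74.0 CPM, and Ctgf, a target of TGF-beta, at 39.6 and 54.7. Among VEGF ligands and receptors 0 of 9 reached that size, with a median of -0.20. The VEGF receptor genes Flt1 and Kdr stood at 4.19 and 3.51 and at 3.89 and 2.34 in the members, low levels that rest on few UMIs. The co-receptor Nrp2 stood at 215 and 172.

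**Figure D5:**
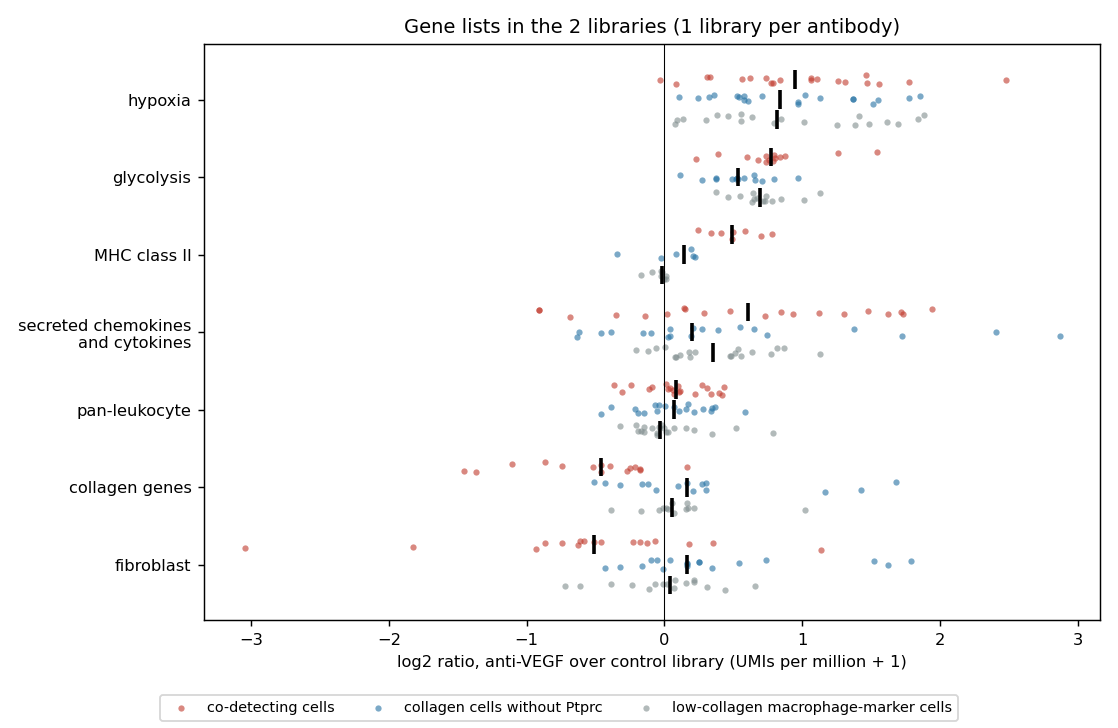
Log2 ratio of the anti-VEGF over the control library for each gene of 7 lists, in co-detecting cells (red), collagen cells without Ptprc (blue) and macrophage-marker cells (grey); black bars are list medians. Hypoxia and glycolysis medians lie to the right of 0 in all 3 groups, and collagen and fibroblast medians lie to the left of 0 in co-detecting cells, at -0.46 and -0.51, and at 0.17 in collagen cells without Ptprc.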

How the data were processed

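Droplet libraries of CD45-sorted tumour cells were compared, 1 per antibody. The authors deposited filtered matrices of whole-number UMI counts per gene and cell, and the submitters' processing notes name Cell Ranger 3.0.2 and mm10. The matrix headers give software version 3.1.0 instead, and further settings were not stated. The libraries held 233687412 and 213948867 UMIs in 11687 and 8825 barcodes, with medians of 25531 and 25872.5 per cell past the filter.

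The members and the gene lists were chosen with earlier results of these data known. Counts were summed over the cells of each group and library and scaled to 1000000 (CPM). Log2 ratios used a pseudocount of 1 CPM, and genes needed 30 UMIs over both sums. A gene counted as past the fold at a log2 ratio of 1 in size. Intervals are exact (Poisson, conditional binomial, Clopper-Pearson; 95%) and cover counting error only. Genes are named from the lists, and otherwise as the 8 highest and 8 lowest ratios among genes with 50 CPM in 1 library and a UMI in 10% of the cells, predicted, mitochondrial, ribosomal and receptor-segment genes left out. Between cell groups the ratio nearer to 0 of the 2 libraries was ranked. Doublets were scored with Scrublet (scanpy 1.11.5) and not removed in the main results. Thinning drew 5000 UMIs per cell. Alternatives changed the Ptprc, collagen, UMI and mitochondrial minima, the scaling, the pseudocount and the cells included. The members without fibroblast-rich cells, the reference rich in Acp5 and Ctsk, and the minima for other leukocyte genes were chosen after the data were seen. Scripts were tested on simulated data (Python 3.11.15, numpy 2.4.6, scipy 1.17.1). A gene of the macrophage list is not reported by name here.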

Additional observations from a re-analysis of the deposited data

Results flagged for a closer look

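Only the genes of the lists and the named genes were searched here, without the genes of the rule. Among them, 6 genes had log2 ratios of anti-VEGF over control of at least 1 in size that pointed in opposite directions in co-detecting cells and in another cell group. The other tested genes were not searched, so the 6 are not a count over all genes. The differences between the groups were not tested, since each antibody has 1 library. Lox was -2.12 in the members and 2.51 in collagen cells without Ptprc, and 61 of its 62 UMIs in control members lay in 1 cell. Loxl2 was -2.07 against 1.22, with 52 of 65 control UMIs in the same cell. Postn was -1.83 against 1.79, with 131 of 135 control UMIs in that cell. Col15a1 was -1.45 against 1.43, with 13 of 33 control UMIs in it, and Col12a1 was -1.11 against 1.68, with 18 of 33. Lyz1, a lysozyme gene next to Lyz2 with which it can share reads, was -1.19 in the members, 2.15 in collagen cells without Ptprc and 1.46 in macrophage-marker cells. Its 5 richest control members held 93.3% of the 821 UMIs.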

How the results depend on the processing

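The share of co-detecting cells was 1.029% and 1.722% (control, then anti-VEGF, also below) with at least 2 Ptprc UMIs and 0.8802% and 1.603% with at least 3. It was 1.083% and 1.796% with at least 30 collagen UMIs, and 0.5687% and 0.7274% with at least 100. A depth minimum of 500 UMIs gave 0.9995% and 1.887%. Leaving out members with 5 or more macrophage genes gave 0.2708% and 0.6087%, and removing the top Scrublet scores 0.7824% and 0.9986%. It was higher in the anti-VEGF library in each of these.

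The pan-leukocyte position, 0.360 and 0.384, was 0.452 and 0.458 with at least 2 Ptprc UMIs, 0.463 and 0.462 with at least 3, 0.341 and 0.391 at 5% mitochondrial UMIs, 0.328 and 0.344 with at least 100 collagen UMIs, and 0.354 and 0.370 with at least 30. It was 0.376 and 0.364 with cells weighted equally, 0.375 in thinned control cells, and 0.271 and 0.198 without the top Scrublet scores. It was 0.043 and 0.139 without members with 5 or more macrophage genes, 0.401 and 0.460 with only those, and 0.450 and 0.453 with the reference rich in Acp5 and Ctsk.

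Against collagen cells without Ptprc, 826 genes became 293 after thinning, 533 with at least 100 collagen UMIs, 110 without members with 5 or more macrophage genes and 435 without the top Scrublet scores. Against macrophage-marker cells, 1810 became 2965 without members with 5 or more macrophage genes and 1070 with a pseudocount of 5. Between antibodies, 207 became 530 without members with 5 or more macrophage genes, 360 without the top Scrublet scores, 317 with a pseudocount of 0.1 and 84 with a pseudocount of 5.

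Without members with 5 or more macrophage genes, the log2 ratio against collagen cells without Ptprc turned to -0.04 for C1qc and -0.15 for Ms4a7. Between antibodies it turned to 1.02 for Hspa1a and 0.47 for Krt8, and the medians to 2.74 for osteoclast-like genes and -0.59 for chemokines, which were also at -0.51 without the top Scrublet scores. Adm was at -0.14 with at least 100 collagen UMIs, Cxcl9 at -0.12 and -0.13 with at least 2 and 3 Ptprc UMIs, and Fabp4 at 0.03 with at least 3. The cause of these shifts was not tested, beyond the fewer cells that each setting leaves. Over the 18 settings the hypoxia median stayed between 0.65 and 1.43, glycolysis between 0.67 and 0.97, the collagen genes between -0.69 and -0.21 and the fibroblast list between -0.76 and -0.25. Others moved more widely: pan-leukocyte genes from -0.41 to 1.4, macrophage genes from -1.07 to 0.7, MHC class II from 0.16 to 3.38 and proliferation from -0.26 to 0.24. No paired analysis was possible because each antibody has 1 library, and no library could be left out. Depth limits low genes, since 1 UMI of Ptprc carried 32 and 38 members.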
